A study of Mus musculus with 4 samples.

Results

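Collagens are the main structural proteins of the extracellular matrix. The 38 protein-coding mouse genes whose symbol is Col, a number, the letter a and a number were read from the table of 51826 gene identifiers, leaving out the 6 cartilage genes of that form (Col2a1, Col9a1, Col9a2, Col9a3, Col11a1 and Col11a2), so 38 of 44 such genes are described. The rule reads gene names and uses no measured value, although it was proposed with earlier results of these data known. RNA came from 4 mouse mammary tumours that all carried the C3-T transgene (C3-T+), 2 with both copies of Elf5 intact (genotype Elf5+/+, called WT) and 2 with 1 copy lost (Elf5+/-, called HET). The Elf5 protein is a transcription factor of the ETS family that acts in luminal progenitors and milk-forming alveolar cells of the mammary gland, and the comparison asks which transcripts differ when a copy of it is missing. The sources used here do not give the promoter that drives C3-T, the strain or the age of the mice. Per the labels, tumours were dissociated with collagenase and hyaluronidase and sorted to enrich tumour cells with antibodies against CD45 on leukocytes, CD31 on endothelium and TER119 on red cell precursors, and libraries were built from total RNA. Fibroblasts carry none of these 3 surface proteins. Both HET titles carry the same leading number, and the 2 WT titles carry different ones, so the HET libraries may be 2 tumours of 1 animal. The labels do not say so, and p-values here measure only the spread between these 4 samples.

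Every collagen is built from 3 chains wound into a triple helix, which needs a glycine at the first position of each triplet of residues. The chains are secreted as procollagens, and in the fibrillar types (I, III, V, XXIV and XXVII) they assemble into the banded fibrils of connective tissue, which in a mammary tumour are laid down chiefly by fibroblasts. Type IV forms the sheet-like network of basement membranes beneath epithelium and around vessels, and type VI forms beaded filaments next to it. The fibril-associated collagens with interrupted helices (FACITs) sit on fibril surfaces, multiplexins (types XV and XVIII) lie in basement membrane zones, and the transmembrane collagens are anchored in the cell surface.

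Fibrillar and basement membrane chains share this glycine repeat in their coding sequence and differ in how long it runs unbroken. A stretch of 54 bases (6 triplets) is shown for 2 fibrillar genes and for the X-linked type IV pair. Each stretch starts at the gene's longest unbroken run, so it shows the repeat and no interruption. The capitals mark the first 2 bases of each glycine codon. The sequences were read 5′ to 3′ from GENCODE transcripts of build GRCm38.
Col1a1: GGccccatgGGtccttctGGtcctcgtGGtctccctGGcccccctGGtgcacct
Col5a3: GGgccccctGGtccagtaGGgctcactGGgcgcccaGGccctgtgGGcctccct
Col4a5: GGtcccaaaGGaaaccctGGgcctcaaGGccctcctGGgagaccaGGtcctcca
Col4a6: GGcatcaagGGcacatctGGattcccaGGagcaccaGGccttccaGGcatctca
In Col1a1 such triplets ran without a break for 338 units, and in Col5a3 for 337. Over the 8 fibrillar genes the longest unbroken run was between 216 units (Col24a1) and 344 units (Col3a1). In the 6 type IV genes it was between 39 units (Col4a3) and 66 units (Col4a2), and the repeat was split into 22 to 27 stretches of at least 5 units. These interruptions are the known hallmark of type IV chains.

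The tumour libraries held between 12695132 and 15307939 estimated counts. Levels are given as CPM, counts scaled to equal library size after TMM (trimmed mean of M values, a correction for library composition). Each run of 4 values gives WT 1 first, then the library labelled WT 2, then HET 1 and last HET 2. Elf5 itself (chromosome 2, 103411688 to 103450989, GRCm38) stood at 35.5, 4.68, 5.37 and 10.6 CPM, so the library labelled WT 2 lay below both HET libraries. Its log2 fold change (HET over WT, here and throughout) was -1.33 ± 0.92 (SE) and did not pass (edgeR quasi-likelihood test with Benjamini-Hochberg adjustment, adjusted p = 0.986). Its direction rested on WT 1: the log2 fold change was 0.76 without WT 1 and -2.16 without the library labelled WT 2. Whole-gene counts do not tell whether a copy is deleted, and every direction below rests on that label. The same library stood apart in its cell type markers. The 6 pan-leukocyte markers summed to 186, 7.52, 215.5 and 179.6 CPM. The 8 macrophage markers summed to 1618, 143.8, 3459 and 1253 CPM, of which Apoe alone was 1215, 123, 2978 and 959.5 CPM. Each of these 8 was lowest in the library labelled WT 2. The 8 endothelial markers summed to 369.5, 73.7, 328.7 and 531.5 CPM, with the endothelial gene Cldn5 at 0 counts in the library labelled WT 2. Luminal epithelial markers were present in every library, with Epcam at 8266 counts or more.

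The 13 fibroblast markers other than collagens (Pdgfra, Pdgfrb, Thy1, Fap, Dpt, Lum, Dcn, Pi16, Clec3b, Mfap5, Fbln1, Fbn1 and Twist2) summed to 901, 2156, 786 and 687 CPM. All 13 were detected in every library and all 13 were highest in the library labelled WT 2, where 26.6% of all genes tested were. Of the 13, 8 were lower in both HET than in both WT libraries, where 15.9% of all genes were. Pericyte and smooth muscle markers summed to 378, 586, 478 and 454 CPM. In bulk RNA, fewer cells of a type and less RNA per cell cannot be told apart, and the part of these cell types in the collagen values below was not tested.

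Collagen transcripts were most abundant in the library labelled WT 2. The 38 genes together took 1.06%, 2.82%, 0.812% and 0.944% of all counts, so the 2 HET libraries lay just below WT 1 and the library labelled WT 2 far above the rest. Type I and type III collagen, the main fibril collagens, made up 55.5%, 68.0%, 46.0% and 51.7% of the summed collagen CPM. Per kilobase of exon, averaged over the 4 libraries, Col1a1 was highest at 624.7 CPM per kb, followed by Col3a1 at 276.2 and Col1a2 at 157.0. Col12a1 and Col6a1 stood at 71.8 and 93.8 CPM per kb, and Col4a1 at 70.7. Col19a1 was lowest on this scale at 0.132 CPM per kb. With the longest protein-coding transcript as length, Col1a2 moved to 364.9 CPM per kb and the same 3 genes led in the same order.

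**Figure D1:**
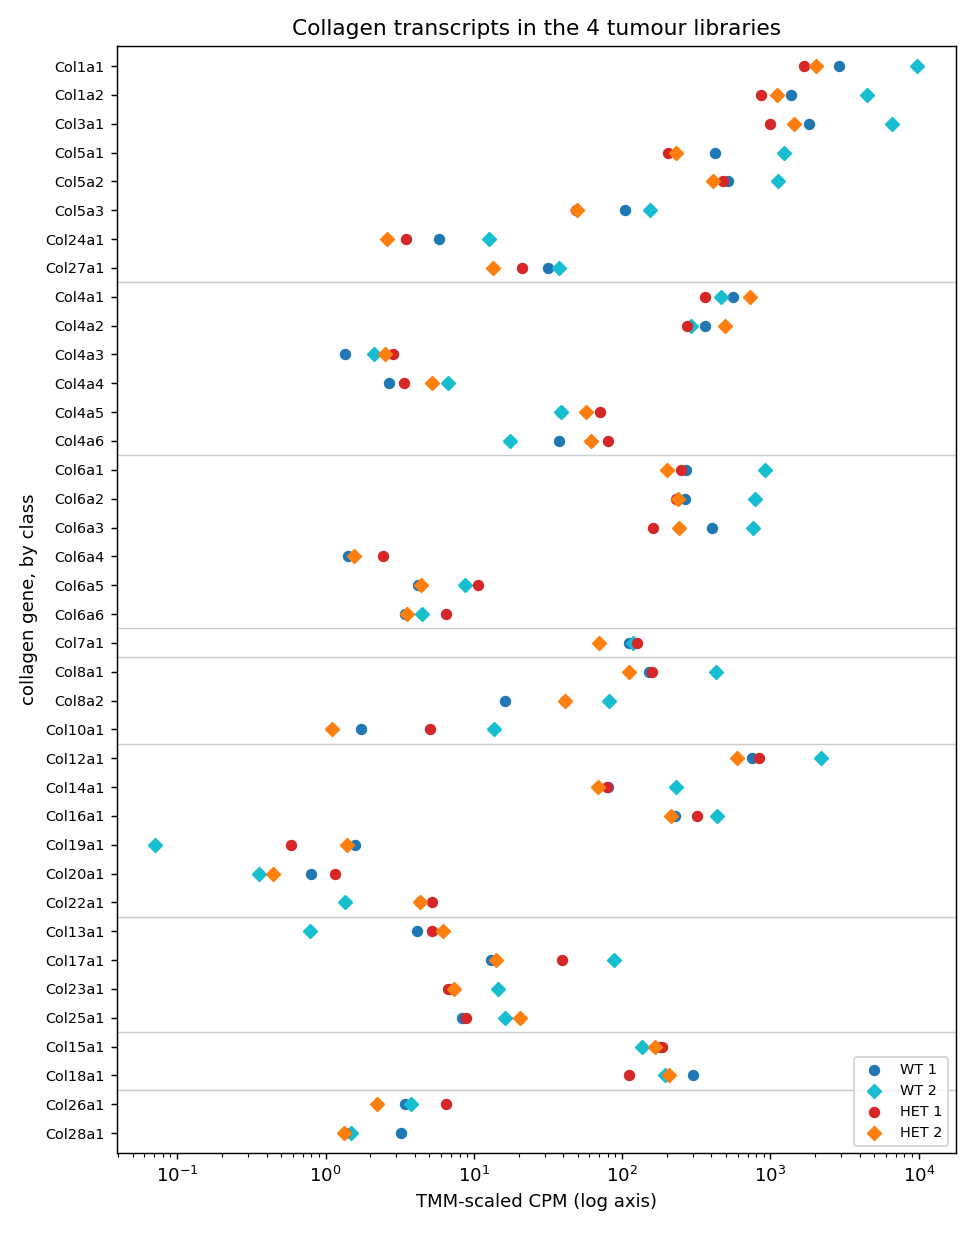
TMM-scaled CPM (log axis) of the 38 collagen genes, grouped by class, in the 4 tumour libraries, 1 point per library. The 8 fibrillar genes at the top have their highest point in WT 2 and both HET points to the left of both WT points, and Col6a4 has no WT 2 point because its count there was 0.

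All 38 collagen genes passed the filter on low counts, and none of them differed by genotype after adjustment. By the edgeR quasi-likelihood test with Benjamini-Hochberg adjustment over the 21607 genes fitted, 0 collagen genes passed an adjusted p under 0.05, as did 0% of all genes (0 of 21607). DESeq2 called 0 collagen genes, against 0.62% of all genes, and limma-voom called 0. At an unadjusted p under 0.05 in edgeR, 8 of the 38 were lower in HET, against 1.83% of all genes, and 2 were higher (Col4a5 and Col4a6), against 1.95%. In 23 of 38 genes the log2 fold change was below 0, where 47.3% of all genes lay below 0. The groups did not overlap for 19 genes. Of these, 13 were lower in both HET than in both WT libraries, where 15.9% of all genes were, and 6 were higher, where 19.6% were. The library labelled WT 2 held the highest value for 20 of the 38, against 26.6% of all genes. The median log2 fold change was -0.46 over the 38 genes and 0.04 over all genes. Without the library labelled WT 2 the collagen median was -0.04 and the all-gene median 0.02.

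The 8 fibrillar collagens held most of the lower values. Summed, they stood at 7197, 23400, 4271 and 5286 CPM. Each of the 8 was lower in both HET than in both WT libraries, where 15.9% of all genes were. Their median log2 fold change was -1.58. At an unadjusted p under 0.05 in edgeR 7 of the 8 were lower in HET, against 1.83% of all genes, although 0 passed after adjustment. Each of the 8 was highest in the library labelled WT 2, where 26.6% of all genes were, and without that library their median was -0.77.

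Col1a1 (chromosome 11, 94936224 to 94953042), the major chain of type I collagen, stood at 2912, 9786, 1670 and 2031 CPM. Both HET libraries lay below WT 1, and the library labelled WT 2 stood several times above every other. The log2 fold change was -1.78 ± 0.64 (SE), or -0.65 without the library labelled WT 2. Col1a2, the other type I chain, stood at 1382, 4451, 861 and 1112 CPM, in the same order of libraries. Col3a1, which forms fibrils with type I, stood at 1815, 6609, 987 and 1435 CPM. For all 3 genes HET 1 was lowest and HET 2 lay between HET 1 and WT 1. The unadjusted p of Col1a1 in edgeR was 0.0318 (adjusted p = 0.986).

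Type V collagen co-assembles with type I and sets fibril diameter. Col5a1 (chromosome 2, 27886425 to 28039514) stood at 426, 1227, 203 and 232 CPM. Its log2 fold change was -1.93 ± 0.54 (SE; edgeR unadjusted p = 0.0119, adjusted p = 0.986) and -0.97 without the library labelled WT 2. Col5a3 (chromosome 9, 20770050 to 20815067) stood at 104, 153, 49.0 and 49.4 CPM. It had the smallest p of the 38 genes: both HET libraries were near 49 CPM and both WT libraries were more than 100 CPM. The log2 fold change was -1.39 ± 0.32 (SE; edgeR unadjusted p = 0.00459, adjusted p = 0.986). Leaving out the library labelled WT 2 moved it to -1.09, less than for Col1a1 or Col5a1. Col5a2 stood at 519.8, 1121, 476 and 411 CPM, with HET 1 close to WT 1.

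Types XXIV and XXVII are fibrillar collagens with a shorter unbroken helix. Col24a1 (chromosome 3, 145292472 to 145552011) stood at 5.86, 12.6, 3.49 and 2.59 CPM, with a log2 fold change of -1.60 ± 0.58 (SE; edgeR unadjusted p = 0.0318, adjusted p = 0.986), and -0.94 without the library labelled WT 2. Col27a1 (chromosome 4, 63214004 to 63334991) stood at 31.8, 37.4, 21.01 and 13.5 CPM. Both WT libraries were close together for Col27a1, unlike the type I genes. Its log2 fold change was -1.004 ± 0.355 (SE; edgeR unadjusted p = 0.0297, adjusted p = 0.986), and -0.88 without the library labelled WT 2.

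**Figure D2:**
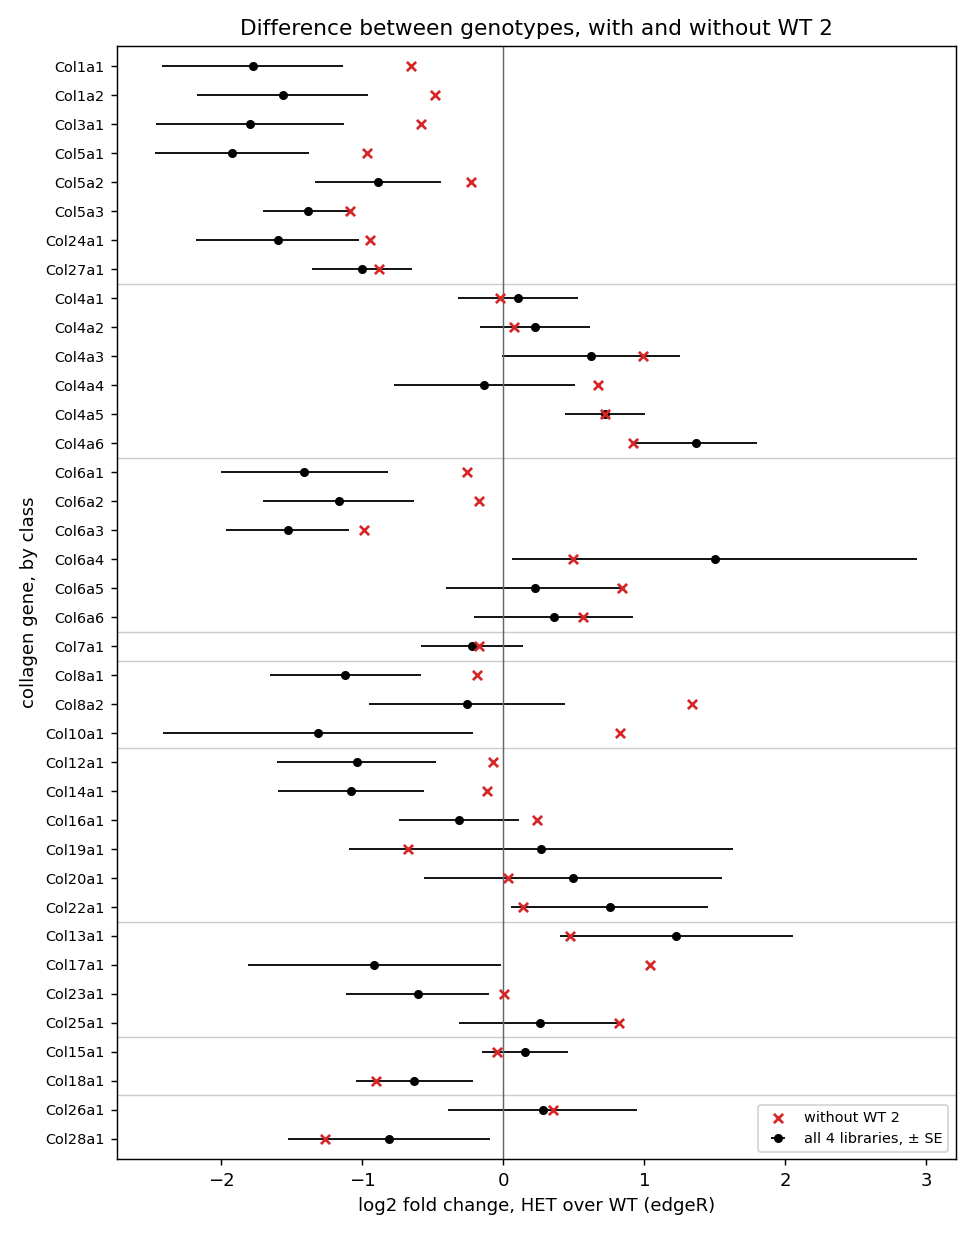
Log2 fold change of HET over WT from edgeR for the 38 collagen genes by class, with all 4 libraries (points, bars ± SE) and without WT 2 (crosses). The 8 fibrillar genes stay below 0 in both fits, with Col5a3 at -1.39 and -1.09, while Col17a1 changes side, from -0.92 to 1.04.

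In the fibroblast marker list 13 of 13 genes were below 0 (47.3% of all genes). The median log2 fold change of the list was -0.76, or -0.17 without the library labelled WT 2. Of the 13, 8 were lower in both HET than in both WT libraries (15.9% of all genes), and the others overlapped. Fbn1 and Dcn, the most abundant of the 13, differed: Fbn1 stood at 344.5, 945.9, 229.3 and 245.8 CPM. Dcn stood at 133.4, 252.5, 133.5 and 94.2 CPM, with WT 1 and HET 1 level. The ratio of summed fibrillar CPM to summed fibroblast marker CPM was 7.99, 10.9, 5.43 and 7.70. Both HET libraries were below both WT libraries on this ratio, with HET 2 at 7.70 and WT 1 at 7.99. With 2 libraries per genotype an exact permutation test cannot give a p below 0.33. The 4 osteoblast markers, from cells that also make type I collagen, summed to 8.16 CPM or less in every library. The part of fibroblasts and of osteoblasts in the fibrillar values was not tested.

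Type IV collagen did not share the lower values. The 6 genes summed to 999.7, 818, 789 and 1351 CPM, so HET 1 was lowest and HET 2 highest. Their median log2 fold change was 0.42, or 0.70 without the library labelled WT 2. Of the 6, 3 were higher in both HET libraries, where 19.6% of all genes were. Col4a1 and Col4a2, the most abundant of them, had log2 fold changes of 0.10 and 0.22 and overlapped between genotypes. The ratio of fibrillar to type IV CPM was 7.20, 28.6, 5.41 and 3.91.

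The 6 genes lie as 3 head-to-head pairs on opposite strands. Col4a1 and Col4a2 (chromosome 8) start 21 bases apart and overlap, Col4a3 and Col4a4 (chromosome 1) start 72 bases apart, and Col4a5 and Col4a6 (chromosome X) start 1309 bases apart. The sources used here do not say whether reads were counted by strand.

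Col4a1 (11198423 to 11312826), which with Col4a2 makes the network of nearly all basement membranes, stood at 556.5, 461.5, 359.7 and 732.9 CPM. Its log2 fold change was 0.10 ± 0.43 (SE; edgeR adjusted p = 0.994), so the spread within HET exceeded the difference between genotypes, and it turned to -0.56 without HET 2 and -0.03 without the library labelled WT 2. Col4a2 stood at 363, 292, 272 and 492 CPM. The pair kept a narrow ratio, with Col4a1 over Col4a2 per kilobase at 1.36, 1.40, 1.17 and 1.32. The endothelial markers, from cells that also make this network, summed highest in HET 2 and lowest in the library labelled WT 2. Col4a1 was highest in HET 2 and lowest in HET 1. The part of endothelial cells in the type IV values was not tested.

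Col4a5 and Col4a6 encode chains that form a second type IV network in some epithelial and smooth muscle basement membranes. Col4a5 (141475385 to 141689234) stood at 38.7, 38.6, 70.5 and 57.1 CPM, with both WT libraries level and both HET libraries above them. Col4a6 (141165403 to 141474076) stood at 37.6, 17.6, 80.5 and 61.9 CPM. The log2 fold change of Col4a6 was 1.37 ± 0.43 (SE; edgeR unadjusted p = 0.0193, adjusted p = 0.986), and 0.92 without the library labelled WT 2. Within the pair, Col4a5 over Col4a6 per kilobase was 1.22, 2.60, 1.04 and 1.09, so the library labelled WT 2 had less Col4a6 for its Col4a5. Basal epithelial markers summed to 919.6, 1232, 906 and 529.5 CPM, with log2 fold changes below 0 for 5 of 6 and above 0 for 1. Pericyte and smooth muscle markers summed to 378, 586, 478 and 454 CPM, with 6 of 8 below 0 and 2 above. Of all genes 47.3% lay below 0. The part of these cell types in the Col4a5 and Col4a6 values was not tested.

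Col4a3 and Col4a4, the chains of the kidney glomerular network, were low. Col4a3 stood at 1.35, 2.13, 2.84 and 2.51 CPM and Col4a4 at 2.69, 6.74, 3.36 and 5.25 CPM. Col4a3 was higher in both HET libraries, and Col4a4 overlapped between genotypes.

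**Figure D3:**
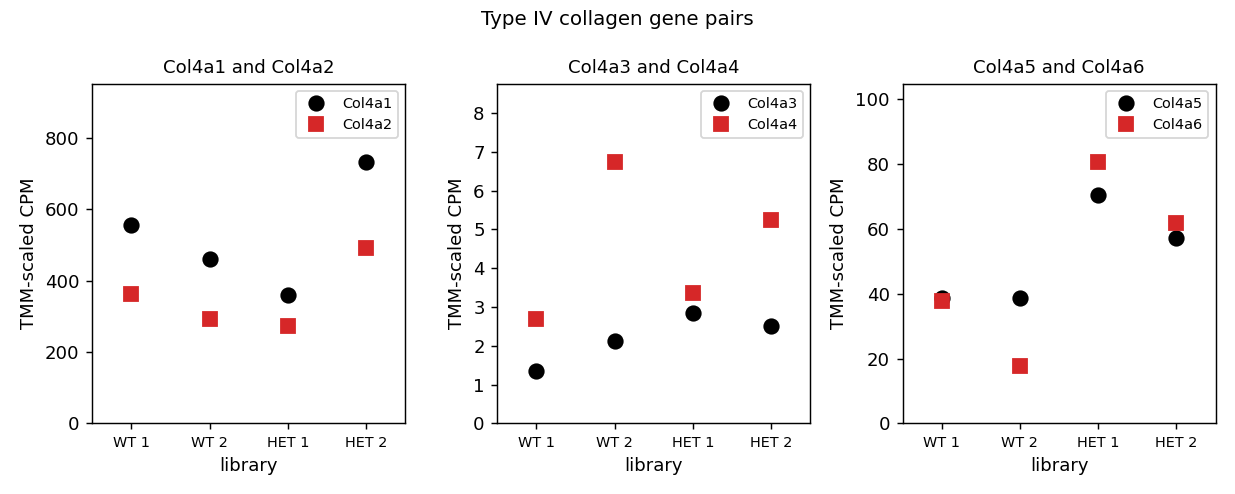
TMM-scaled CPM of the 3 head-to-head type IV gene pairs in each library (linear axes from 0, 1 point per gene and library). Col4a5 and Col4a6 lie above both WT libraries in HET 1 and HET 2, at 57.1 to 80.5 CPM, whereas Col4a1 and Col4a2 are lowest in HET 1 and highest in HET 2.

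Type VI collagen divided into 2 sets. The classical chains Col6a1, Col6a2 and Col6a3, which fibroblasts make and which assemble together, were lower in both HET libraries, by little next to WT 1 in the first 2. Col6a1 (chromosome 10, 76708792 to 76726168) stood at 269, 925, 249 and 199.9 CPM, with a log2 fold change of -1.41 ± 0.60 (SE; edgeR adjusted p = 0.986), or -0.26 without the library labelled WT 2. Col6a2 stood at 263, 784, 229 and 238 CPM. Col6a3 (chromosome 1, 90765923 to 90843971) stood at 400.4, 765, 161 and 242 CPM, with WT 1 well above both HET libraries. Its log2 fold change was -1.53 ± 0.44 (SE; edgeR unadjusted p = 0.0127, adjusted p = 0.986), or -0.99 without the library labelled WT 2. The later-described chains on chromosome 9 were low and were not lower in HET. Col6a4 stood at 1.43, 0, 2.46 and 1.55 CPM, where a count of 0 allows up to 0.213 CPM (3 counts). Col6a5 stood at 4.20, 8.65, 10.6 and 4.43 CPM and Col6a6 at 3.41, 4.47, 6.53 and 3.55 CPM. Over the 6 genes the median was -0.47, and 0.16 without the library labelled WT 2.

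Type VII collagen forms the fibrils that anchor epithelium to stroma. Its gene Col7a1 (chromosome 9, 108953586 to 108984875) stood at 110.4, 118, 126 and 69.7 CPM, so that only HET 2 was apart. The log2 fold change was -0.22 ± 0.37 (SE; edgeR adjusted p = 0.986), and between -0.77 and 0.07 with a library left out.

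The network-forming short chain collagens were highest in the library labelled WT 2 and overlapped between genotypes. Col8a1 (chromosome 16, 57624258 to 57754737), a chain of the vascular and stromal type VIII, stood at 153, 432, 158 and 111 CPM (log2 fold change -1.12 ± 0.53, SE, and -0.18 without the library labelled WT 2). Col8a2 stood at 16.2, 81.7, 40.9 and 41.0 CPM, lowest in WT 1. Col10a1, known from hypertrophic cartilage, stood at 1.74, 13.6, 5.04 and 1.11 CPM. The 7 chondrocyte markers summed to 391, 94.8, 30.1 and 52.8 CPM, most of it from Acan at 334.8, 70.9, 24.3 and 33.6 CPM. Of the 7, 1 (Comp) was highest in the library labelled WT 2, as Col10a1 was (26.6% of all genes).

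Among the 6 FACIT genes, Col12a1 (chromosome 9, 79598991 to 79718831), which binds type I fibrils, was the most abundant at 752, 2192, 835 and 596 CPM. The library labelled WT 2 set its log2 fold change of -1.04 ± 0.56 (SE), which was -0.07 without it. Col14a1, also fibril-bound, stood at 80.2, 232, 78.7 and 69.2 CPM and Col16a1 at 227, 436, 320 and 215 CPM. Both were highest in the library labelled WT 2. The other 3 were low and lowest there: Col19a1 stood at 1.58, 0.0709, 0.582 and 1.40 CPM. Col20a1 stood at 0.792, 0.355, 1.16 and 0.443 CPM. Col22a1, known from tissue junctions such as that of muscle and tendon, stood at 4.36, 1.35, 5.24 and 4.36 CPM.

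The 4 transmembrane collagens did not move as a set. Col17a1 (chromosome 19, 47646344 to 47692094), the hemidesmosomal collagen of basal epithelial cells, stood at 13.0, 87.8, 39.2 and 14.1 CPM. The library labelled WT 2 and HET 1 were its high libraries, and its log2 fold change of -0.92 ± 0.90 (SE; edgeR adjusted p = 0.986) turned to 1.04 without the library labelled WT 2. Of the 6 basal epithelial markers, Krt5, Krt17 and Trp63 were highest in the library labelled WT 2 and next highest in HET 1, Krt14 and Itgb4 were highest in WT 1, and Itga6 was highest in HET 2 and lowest in the library labelled WT 2. The part of basal cells in the Col17a1 values was not tested. Col13a1 stood at 4.12, 0.780, 5.24 and 6.21 CPM, lowest in the library labelled WT 2 and higher in both HET libraries. Col23a1 stood at 7.05, 14.5, 6.72 and 7.39 CPM and Col25a1 at 8.32, 16.2, 8.79 and 20.6 CPM, and both overlapped between genotypes.

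The multiplexins and the remaining genes were not highest in the library labelled WT 2. Col18a1 (chromosome 10, 77052178 to 77166548), the source of endostatin, stood at 298, 195, 112 and 206 CPM, with a log2 fold change of -0.63 ± 0.42 (SE; edgeR adjusted p = 0.986), and between -1.19 and -0.29 with a library left out. Col15a1 was among the most even of the 38 genes, at 181, 135, 185 and 167 CPM. Col26a1 (chromosome 5, 136741759 to 136883209) stood at 3.41, 3.76, 6.46 and 2.22 CPM, with a log2 fold change of 0.28 ± 0.67 (SE), and -0.75 without HET 1. Col28a1 stood at 3.25, 1.49, 1.36 and 1.33 CPM, where both HET libraries lay below both WT libraries by a narrow margin.

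**Figure D4:**
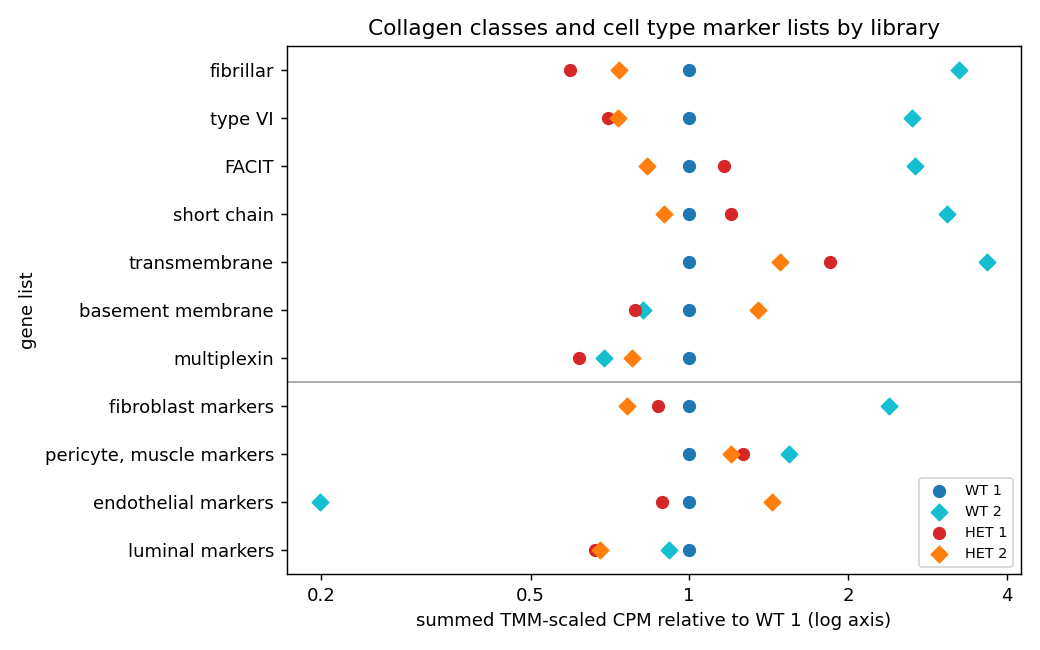
Summed TMM-scaled CPM of 7 collagen classes (upper rows) and 4 cell type marker lists (lower rows) in each library, relative to WT 1 (log axis). Fibrillar, type VI, FACIT, short chain and transmembrane sums are highest in WT 2, as is the fibroblast marker sum, whereas the basement membrane class is highest in HET 2 and the multiplexins in WT 1.

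The 2 chains of type I collagen were read in a near-constant proportion. Col1a1 over Col1a2, each per kilobase of its longest transcript, was 1.90, 1.98, 1.75 and 1.65, where the type I molecule holds 2 copies of the first chain for each copy of the second. With the union of exons as length the same ratios were 3.99, 4.16, 3.67 and 3.46, so the absolute ratio depends on the length used. A gene's length is the same in every library, so the choice of length cannot change the order over libraries. Both HET libraries were below both WT libraries.

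Genes that process, cross-link, bind or degrade collagen were read from 7 lists, and 0 of their members passed the edgeR test. The genes named are the 3 of smallest unadjusted p in each list, a choice that favours genes with no overlap between genotypes. For each count the share of all genes stands in brackets: 47.3% were below 0, 15.9% lower and 19.6% higher in both HET libraries. The 19 modification and folding genes had 16 members below 0 (47.3%), with 8 lower in both HET libraries (15.9%), 1 higher (19.6%) and a median log2 fold change of -0.50 (0.07 without the library labelled WT 2). Serpinh1, the procollagen chaperone HSP47, stood at 301, 503, 152 and 210.2 CPM (-1.15 ± 0.38, SE, on the log2 scale, and -0.73 without the library labelled WT 2). P4ha1, a prolyl 4-hydroxylase subunit that stabilises the helix, stood at 100, 148, 61.1 and 69.3 CPM (log2 fold change -0.93 ± 0.32, SE, and -0.62 without that library). P3h1, a prolyl 3-hydroxylase, stood at 20.4, 43.2, 14.4 and 12.9 CPM (log2 fold change -1.22 ± 0.44, SE, and -0.58 without that library). All 3 had both HET libraries below both WT libraries.

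Of 10 genes for export and propeptide cleavage 9 were fitted, of which 7 were below 0 (47.3%) and 6 were lower in both HET libraries (15.9%; median -0.72, and -0.11 without the library labelled WT 2). Bmp1, the C-propeptide protease, stood at 139.5, 168, 89.3 and 75.7 CPM (log2 fold change -0.90 ± 0.29, SE, and -0.76 without the library labelled WT 2). Pcolce2 and Pcolce, its enhancers, stood at 5.78, 22.8, 4.46 and 2.73 CPM and at 47.5, 136, 46.0 and 46.9 CPM (log2 fold changes -1.99 and -0.98, and -0.68 and -0.03 without the library labelled WT 2). Of these enhancers, Pcolce was nearly level in WT 1 and both HET libraries.

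The 7 cross-linking genes had 6 members below 0 (47.3%), 4 lower in both HET libraries (15.9%) and a median of -1.10 (-0.37 without the library labelled WT 2). Loxl3, a lysyl oxidase, was even within genotypes at 93.6, 90.6, 39.6 and 44.7 CPM (log2 fold change -1.13 ± 0.28, SE; edgeR unadjusted p = 0.00635, adjusted p = 0.986). Its value without the library labelled WT 2 was -1.15. Loxl2 stood at 179, 243, 82.3 and 78.3 CPM (log2 fold change -1.39 ± 0.31, SE) and Lox at 117, 270.3, 71.7 and 109 CPM (-1.10 ± 0.48, SE, on the log2 scale, and -0.37 without the library labelled WT 2). In these 3 lysyl oxidases, as in Col5a3, both HET libraries lay below both WT libraries.

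All 12 fibril-binding proteoglycans and glycoproteins were below 0 (47.3%) and highest in the library labelled WT 2 (26.6%), and 4 were lower in both HET libraries (15.9%; median -0.95, and -0.23 without that library). Postn, a matricellular partner of type I collagen, stood at 1074, 1812, 674 and 784 CPM (log2 fold change -0.99 ± 0.40, SE, and -0.56 without that library). Ogn and Fmod, small leucine-rich proteoglycans, had log2 fold changes of -1.53 ± 0.64 and -1.46 ± 0.63 (SE), and -0.59 and -0.39 without the library labelled WT 2. Fmod overlapped between genotypes, at 27.1 CPM in WT 1 and 27.8 CPM in HET 2.

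The 10 collagen receptors were mixed, with 7 below 0 (47.3%), 3 lower (15.9%) and 1 higher (19.6%) in both HET libraries (median -0.29, and 0.28 without the library labelled WT 2). Itga11, the fibroblast integrin for fibrillar collagen, stood at 23.2, 83.6, 17.1 and 15.4 CPM (log2 fold change -1.72 ± 0.60, SE, and -0.51 without the library labelled WT 2). Ddr2, a receptor kinase for fibrillar collagen, stood at 27.4, 51.1, 49.3 and 73.7 CPM (log2 fold change 0.65 ± 0.41, SE, and between 0.24 and 1.17 with a library left out), and Lair1, a leukocyte receptor, at 12.5, 3.19, 19.4 and 12.2 CPM (1.01 ± 0.69, SE, on the log2 scale, and between 0.34 and 2.31 with a library left out). Both of the latter overlapped between genotypes.

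Of 14 degradation genes 13 were below 0 (47.3%), with 6 lower (15.9%) and 1 higher (19.6%) in both HET libraries (median -0.66, and -0.26 without the library labelled WT 2). Mmp9, a gelatinase, was high in WT 1 alone, at 83.7, 13.9, 9.24 and 8.13 CPM (log2 fold change -2.49 ± 0.81, SE, and -0.68 without WT 1). Timp1, an inhibitor of these proteases, stood at 78.2, 57.4, 36.0 and 40.6 CPM (log2 fold change -0.82 ± 0.30, SE). Ctsk, a collagenolytic cathepsin, stood at 64.1, 69.2, 44.3 and 24.0 CPM (log2 fold change -0.96 ± 0.37, SE, and -1.53 without HET 1). These 2 proteases and the inhibitor, picked by smallest p, were all lower in both HET than in both WT libraries.

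The 14 basement membrane partners of type IV (laminins, nidogens and the like) had a median of -0.15 (0.01 without the library labelled WT 2), with 9 below 0 (47.3%), 1 lower (15.9%) and 2 higher (19.6%) in both HET libraries. Lamb1, a laminin chain, stood at 198, 262, 133.5 and 142 CPM (log2 fold change -0.74 ± 0.30, SE). Nid1, which links laminin to type IV, stood at 141, 280.5, 112 and 149 CPM (log2 fold change -0.69 ± 0.41, SE, and -0.11 without the library labelled WT 2). Lama2 stood at 34.3, 37.7, 56.9 and 42.7 CPM (log2 fold change 0.47 ± 0.30, SE, and 0.19 without HET 1), higher in both HET libraries, as Col4a5 and Col4a6 were.

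Promoters were read for the collagen gene of smallest p in each direction, Col5a3 lower and Col4a6 higher in HET. The 250 bases before the start come from RefSeq tables of build GRCm38.p6, which hold 33 windows for 31 of the 38 genes, and are printed 5′ to 3′ on the minus strand, on which both genes lie. The capitals mark every match, on either strand, to the CCAAT box (CCAAT), the TATA box (TATAAA), the GC box (GGGCGG) and the core of ETS sites with a flank (GGAAG), which includes sites of the Elf5 family. Matches to these 4 motifs can touch or overlap.
Col5a3 at chr9:20815068-20815317: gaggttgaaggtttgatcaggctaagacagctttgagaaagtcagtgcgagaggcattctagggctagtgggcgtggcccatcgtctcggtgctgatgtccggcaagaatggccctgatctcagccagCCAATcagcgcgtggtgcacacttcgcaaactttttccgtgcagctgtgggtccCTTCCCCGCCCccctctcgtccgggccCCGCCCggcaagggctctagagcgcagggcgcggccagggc
Col4a6 at chrX:141474077-141474326: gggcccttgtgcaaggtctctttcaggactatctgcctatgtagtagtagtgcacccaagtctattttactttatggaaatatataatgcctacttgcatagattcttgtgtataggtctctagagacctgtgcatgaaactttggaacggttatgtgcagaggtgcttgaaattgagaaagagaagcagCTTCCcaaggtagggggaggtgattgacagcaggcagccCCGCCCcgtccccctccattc
Col5a3 held 1 CCAAT box starting 122 bases before the start site, 2 GC boxes and 1 GGAAG match, and Col4a6 held 1 GC box and 1 GGAAG match. The GGAAG match was present in both windows. It was found in 75.8% of the collagen windows and in 64.1% of all 32851 windows of the same length. The GC box was found in 57.6% and 32.7%, the CCAAT box in 33.3% and 33.8%, and the TATA box in 12.1% and 12.4%. A match is a run of letters and not a bound site, and no link between matches and transcript levels was tested.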

How the data were processed

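Per the submitters' processing notes, the authors obtained estimated counts per gene with Salmon on build GRCm38.p5. The sources used here do not name Salmon's version, its transcript set or the strandedness. The deposited table holds these estimated counts as whole numbers, which entered the tests unchanged. Of 51826 gene identifiers 51633 were matched, without their version, to GENCODE M21 (GRCm38) for symbols, coordinates and lengths, and 32 of the 38 collagen genes had the same version there. Groups came from the genotype and title labels.

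Genes were filtered with filterByExpr, leaving 21607, scaled by TMM and tested for HET against WT with edgeR 4.0.16 (quasi-likelihood F test, genotype as the sole factor, 2 residual degrees of freedom) in R 4.3.3, with Benjamini-Hochberg adjustment over all genes fitted and a threshold of 0.05. The SE of a log2 fold change was its size divided by the square root of F. DESeq2 1.42.0, limma 3.58.1 (voom), other scalings and filters, protein-coding genes alone and each library left out were alternatives. The procedure was also run on simulated counts with known changes. Those changes were larger than any collagen gene's with all 4 libraries, and the simulated libraries were independent. That run does not show whether changes of the size printed here would be called. No floor or p-value covers more than counting error and the spread between these libraries. The collagen genes, gene lists, rule for named genes and alternatives were chosen with earlier results of these data known. The rule gives every collagen gene with its 4 values, and fold changes for the 6 of smallest unadjusted p, the most abundant gene of each class and up to 3 genes of smallest p per pathway list. Marker lists with few counts (adipocyte, Schwann, skeletal muscle, erythroid and osteoblast) summed to 97.9 CPM or less in every library.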

Additional observations from a re-analysis of the deposited data

How the results depend on the processing

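The calls depended on the filter, the tool and single libraries. The number of genes passing was 0, but 324 with no filter beyond 1 count, 134 by DESeq2, and between 0 and 651 with a library left out (651 without WT 1, 9 without the library labelled WT 2). The number of collagen genes passing was 0, but 7 with no filter beyond 1 count (Col1a1, Col1a2, Col3a1, Col5a1, Col5a3, Col6a1 and Col6a3), and between 0 and 10 with a library left out. The 10 came without WT 1, where WT is the library labelled WT 2 alone and is assumed to vary as HET does; they were Col1a1, Col1a2, Col3a1, Col5a1, Col5a3, Col6a1, Col6a2, Col6a3 and Col14a1, lower, and Col4a6, higher. With a library left out, between 15 and 21 collagen genes were lower in all remaining HET than in all remaining WT libraries (21 without WT 1, 20 without HET 1), where 29.6% to 33.6% of all genes were, and between 9 and 12 were higher (12 without the library labelled WT 2, 11 without HET 2), where 31.2% to 43.4% were. In edgeR the collagen median was below 0 under each scaling and filter run and with each library left out, between -0.72 and -0.04.

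With a library left out, class medians changed sign for type VI (-0.98 to 0.16), the anchoring fibril gene (-0.77 to 0.073), short chain (-1.68 to 0.82), FACIT (-0.55 to 0.23, and 0.053 under upper-quartile scaling), transmembrane (-0.59 to 0.65), multiplexin (-0.51 to 0.043) and the 2 other genes (-0.80 to 0.032). The fibrillar and type IV medians did not. Of 37 genes recomputed under every alternative, 5 changed sign, each with a library left out. They were Elf5 (-2.16 to 0.76), Col4a1 (-0.56 to 0.48), Col7a1 (-0.77 to 0.073), Col17a1 (-1.94 to 1.04) and Col26a1 (-0.75 to 0.78). Col4a2, whose fold change is also printed but which is not among the 37, changed sign too (-0.33 without HET 2 to 0.54 without HET 1). The cause was not tested. Upper-quartile scaling moved the median of all genes to 0.12, and no filter beyond 1 count to 0.11. No paired analysis was possible because the labels give no number that pairs a WT with a HET library. At these depths a count of 0 allows up to 0.238, 0.213, 0.194 and 0.222 CPM.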
